A study of Mus musculus with 22 samples.

Results

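Hypothalamic gene expression in mice 17 days after the injection of tumour cells was compared with that of controls taken on day 14, with the genes that were lower in the tumour-bearing mice described first. The comparison used 10 of the 22 arrays of the series, 6 of tumour day 17 and 4 controls, chosen by their labels alone, and it covered 18820 genes. The series concerns food intake in cachexia, the wasting that accompanies some tumours, and serotonin signalling in the hypothalamus.

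All mice were male C57BL/6, 6 weeks old per the design text of the series, housed singly at 21 °C on a standard diet, and each gave 1 array. Tumour-bearing mice had received Lewis lung carcinoma cells, a transplantable mouse tumour line, in the muscle of a hind leg under anaesthesia. Whether the controls had an injection or anaesthesia at that time is not given in the labels. Every mouse, the controls included, was anaesthetised with ketamine and xylazine on the day of dissection. Controls came from day 14 only, so that day and tumour cannot be told apart in this comparison. The other arrays, 5 of tumour day 10 and 7 of tumour day 14, entered the same model and lent it their spread. Values are log2 values from RMA, differences are tumour day 17 minus control on that scale with the standard error (SE) of the model, and a gene was called when its Benjamini-Hochberg adjusted p in limma was below 0.05.

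The hypothalamus controls feeding, body temperature and hormone release. Neurons of its arcuate nucleus that make neuropeptide Y drive feeding, and those that make the melanocortin precursor restrain it. Chaperones such as HSP70 and HSP90 fold new and damaged proteins, and heat shock factor switches many of them on through short repeated GAA units in their promoters. The brain makes nearly all of its own cholesterol, much of it in glia, and the enzymes of cholesterol and unsaturated fatty acid synthesis are switched on together by the SREBP factors.

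The tissue label was met by the hypothalamus markers. Their mean log2 value lay between 6.96 and 7.20 in the controls and between 6.95 and 7.20 on day 17, and the control mean of 1 of 14 markers lay under the background measure of 3.87, a level under which 95% of the probe sets for olfactory and vomeronasal receptors lie. Markers of the thalamus, the tissue above, differed in level between arrays, and what part thalamic tissue had in the results was not tested. The mean of 12 thalamus markers was 6.81, 6.12, 7.25 and 6.07 in controls 1 to 4, and 6.60, 6.01, 6.05, 6.07, 6.06 and 6.02 in day 17 mice 1 to 6. Control 1, control 3 and day 17 mouse 1, together with 1 mouse of tumour day 14, were the 4 highest of the 22 arrays. All 12 markers had a lower mean on day 17, with a median of -0.42 and 0 called. Results that rest on these arrays are therefore also given without the 4, where 2 controls and 5 day 17 mice remain.

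On day 17, 211 of 18820 genes (1.12%) were called. The falls numbered 129 (0.685% of genes) and the rises 82 (0.436%). Falls had a median size of 0.33 (range 0.19 to 0.78), 13 of 129 reached 0.5, 0 reached 1, and their median control value was 7.69, with 2 of 129 under background. Rises had a median size of 0.47 (range 0.19 to 2.42), 35 of 82 reached 0.5, 12 reached 1, and their median control value was 5.65. In 111 of the 129 falls every day 17 mouse lay below every control, an arrangement found in 621 of all genes (3.3%), and in 66 of the 82 rises every day 17 mouse lay above every control, as in 312 genes (1.66%). The calls themselves favour such genes, so these counts describe the called genes and do not support them. Among the day 17 mice, mouse 6 lay nearest the controls in 58 of the 129 falls and in 41 of the 82 rises. Among the controls, control 4 lay nearest the day 17 mice in 57 of the falls and in 51 of the rises.

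The balance of falls and rises moved with the level of a gene and with the scaling of the arrays. Split by control mean into 10 bins of 1882 genes, those of the lowest bin had a median difference of 0.10 and those of the highest bin one of -0.05, against -0.01 over all genes. The interquartile range of values within an array ran from 3.85 to 3.92 on day 17 and from 3.92 to 3.97 in the controls, the groups just meeting. After a second quantile normalization over the tested genes, the median of each bin lay between -0.01 and 0.02, and the split became 67 falls and 93 rises. Quantile normalization over all 35556 probe sets gave 77 falls and 71 rises. With each array centred on its median, which moved the median over all genes to 0.02, there were 55 falls and 134 rises. Of the 129 falls, 63, 73 and 54 were called again under these scalings, and of the 82 rises 68, 64 and 81, and all 211 genes kept their sign. Which scaling fits the tissue was not tested.

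**Figure D1:**
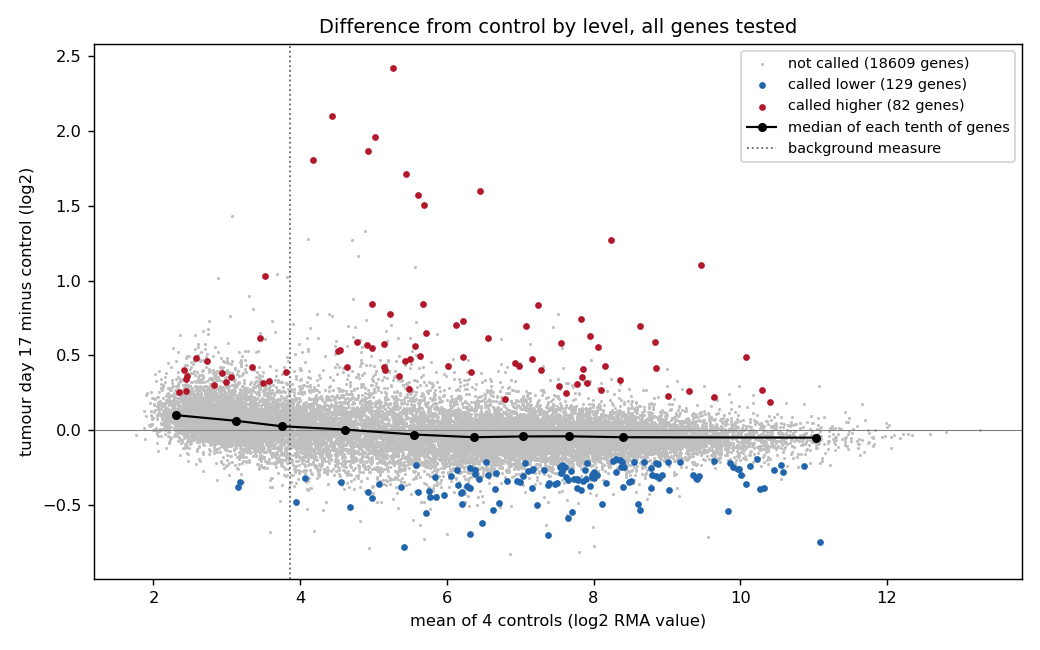
Difference between tumour day 17 and control (vertical axis, log2) against the mean of the 4 controls (horizontal axis, log2 RMA value), with 1 point per gene. Blue points are the 129 genes called lower, red points the 82 called higher, the black line joins the medians of 10 bins of genes by level, which run from 0.10 at the lowest to -0.05 at the highest, and the dotted line marks the background measure of 3.87.

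Of 41 measured heat shock protein genes, 7 fell and 0 rose, against 129 falls (0.685%) and 82 rises (0.436%) among all genes. The list had a median of -0.12. A lower mean was found in 33 of the 41, in 30 after the second quantile normalization and in 32 with median centring. Over all genes, 10103 of 18820 had a lower mean, 9796 after the second quantile normalization and 7954 with median centring. In bulk tissue, fewer cells of a type and less RNA per cell cannot be told apart, here and in the results that follow. Dnajb1, a J protein that hands clients to HSP70, read 7.75, 7.60, 7.76 and 7.73 in controls 1 to 4. On day 17 it ran from 6.93 to 7.47 with a median of 7.14, every mouse below every control, and it fell by 0.55 ± 0.10 (limma adjusted p = 0.00534). Against the same controls it differed by -0.23 on day 10 and -0.40 on day 14.

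Hsph1, the HSP110 protein that recharges HSP70 with nucleotide, read 9.91, 9.84, 9.84 and 9.73 in the controls and ran from 9.10 to 9.61 with a median of 9.25 on day 17. The groups did not overlap, and Hsph1 fell by 0.54 ± 0.11 (adjusted p = 0.022). Its relative Hspa4l fell by 0.32 ± 0.07 (adjusted p = 0.0331), with controls of 9.38, 9.46, 9.50 and 9.26 and day 17 values from 8.93 to 9.30 with a median of 9.05, where the highest day 17 mouse lay above the lowest control. The Hspa4l call was lost with median centring, with only the compared groups in the fit and with the thalamus covariate. The other 8 members of the HSP70 class were not called. Hspa8, the constitutive HSP70 of the cytosol, differed by -0.12 ± 0.08 (95% interval -0.28 to 0.04).

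Among 9 genes of the HSP90 class and its partners, 3 fell and 0 rose, with a median of -0.23. Chordc1, an HSP90-binding protein, read 8.56, 8.66, 8.68 and 8.51 in the controls. It ran from 7.96 to 8.48 with a median of 8.04 on day 17, where mouse 6 stood apart from the other 5 (nearest 8.15), and it fell by 0.49 ± 0.12 (adjusted p = 0.0408). Stip1, which couples HSP70 to HSP90, read 10.06, 10.13, 10.07 and 10.03 in the controls and from 9.52 to 9.95 with a median of 9.69 on day 17, again without overlap, and fell by 0.36 ± 0.08. Fkbp4, a co-chaperone that favours steroid receptor activity, fell by 0.34 ± 0.08. Fkbp5, which opposes Fkbp4 at the glucocorticoid receptor and is itself induced by glucocorticoids, differed by 0.47 ± 0.12 without being called (adjusted p = 0.0579). Hsp90aa1, the inducible HSP90, differed by -0.23 ± 0.06 (adjusted p = 0.0673). The 3 falls of the class became 1 after the second quantile normalization and 0 with median centring, with only the compared groups in the fit and with the thalamus covariate.

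In mitochondria, Hspe1, the cap of the HSP60 folding chamber, read 8.92, 8.82, 8.81 and 8.86 in the controls and from 8.42 to 8.71 with a median of 8.55 on day 17, without overlap. It fell by 0.30 ± 0.06 (adjusted p = 0.0096), and a second probe set of the gene differed by -0.29. The Hspe1 call was lost with only the compared groups in the fit. Whether either probe set also reads near-identical copies of the gene was not tested. Hspd1, the chamber itself, differed by -0.20 ± 0.07 (adjusted p = 0.138). All 8 subunits of the cytosolic chaperonin had a lower mean, 6 of 8 under both scalings given above for the tested genes, with 0 called and a median of -0.12. The 5 small and other heat shock proteins had 0 calls and a median of 0.02, and St13, an HSP70 cofactor outside the lists that was picked after its value was seen, fell by 0.30 ± 0.07. Temperature of the mice is not given in the labels. The cold-inducible RNA-binding protein genes Rbm3 and Cirbp, which cells raise on mild cooling, rose and are described with the rises.

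The promoters of 3 called chaperone genes are shown because they hold the heat shock element, the DNA letters that heat shock factor binds. The 2-unit form was searched as GAANNTTC or TTCNNGAA, each of which reads the same on both strands and can overlap the next, in RefSeq windows from 250 bases before to 50 after each start (GRCm38.p6). Below are the first 280 bases of each window, with matches in capitals.
Chordc1 promoter: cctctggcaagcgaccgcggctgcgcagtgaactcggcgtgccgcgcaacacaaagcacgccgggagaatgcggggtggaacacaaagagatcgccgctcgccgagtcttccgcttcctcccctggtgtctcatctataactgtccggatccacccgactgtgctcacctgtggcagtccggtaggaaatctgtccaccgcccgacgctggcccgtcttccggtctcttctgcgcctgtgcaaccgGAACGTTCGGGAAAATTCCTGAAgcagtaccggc
Hspe1 promoter: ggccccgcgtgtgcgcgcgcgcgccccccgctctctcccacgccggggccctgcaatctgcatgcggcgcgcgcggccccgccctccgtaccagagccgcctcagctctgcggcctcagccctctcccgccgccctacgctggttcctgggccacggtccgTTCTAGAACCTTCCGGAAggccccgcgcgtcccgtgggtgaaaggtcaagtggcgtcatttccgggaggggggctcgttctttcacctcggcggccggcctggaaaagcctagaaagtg
Hsph1 promoter: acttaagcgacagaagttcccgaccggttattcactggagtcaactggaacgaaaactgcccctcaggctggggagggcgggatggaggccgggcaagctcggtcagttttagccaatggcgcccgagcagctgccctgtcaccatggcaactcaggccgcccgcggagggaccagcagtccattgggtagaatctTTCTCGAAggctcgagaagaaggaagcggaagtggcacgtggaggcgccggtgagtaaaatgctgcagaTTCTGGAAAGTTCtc

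The Chordc1 stretch is chr9:18292017-18292296 (plus strand), that of Hspe1 is chr1:55087898-55088177 (plus strand) and that of Hsph1, the second of its windows, is chr5:149636286-149636565 (minus strand). In the Chordc1 window the nearest match begins 1 base after the start of transcription, in that of Hspe1 79 bases before it, and in that of Hsph1 15 bases after it. The 2-unit form was in a window of 4 of the 7 called chaperone genes, the fourth being Fkbp4, and of 15 of 34 heat shock protein genes with a window (44.1%), against 2250 of 14749 tested genes with a window (15.3%). A form of 3 alternating units was in 3 of the 7, in 5 of the 34 (14.7%) and in 0.583% of all. Windows of Dnajb1, Stip1 and Hspa4l held no match, which says only that these letters are not in those windows. In the list of heat shock factors, 3 genes were measured and 0 called, with a median of -0.03 (range -0.06 to 0.07). The activity of the factors was not tested.

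**Figure D2:**
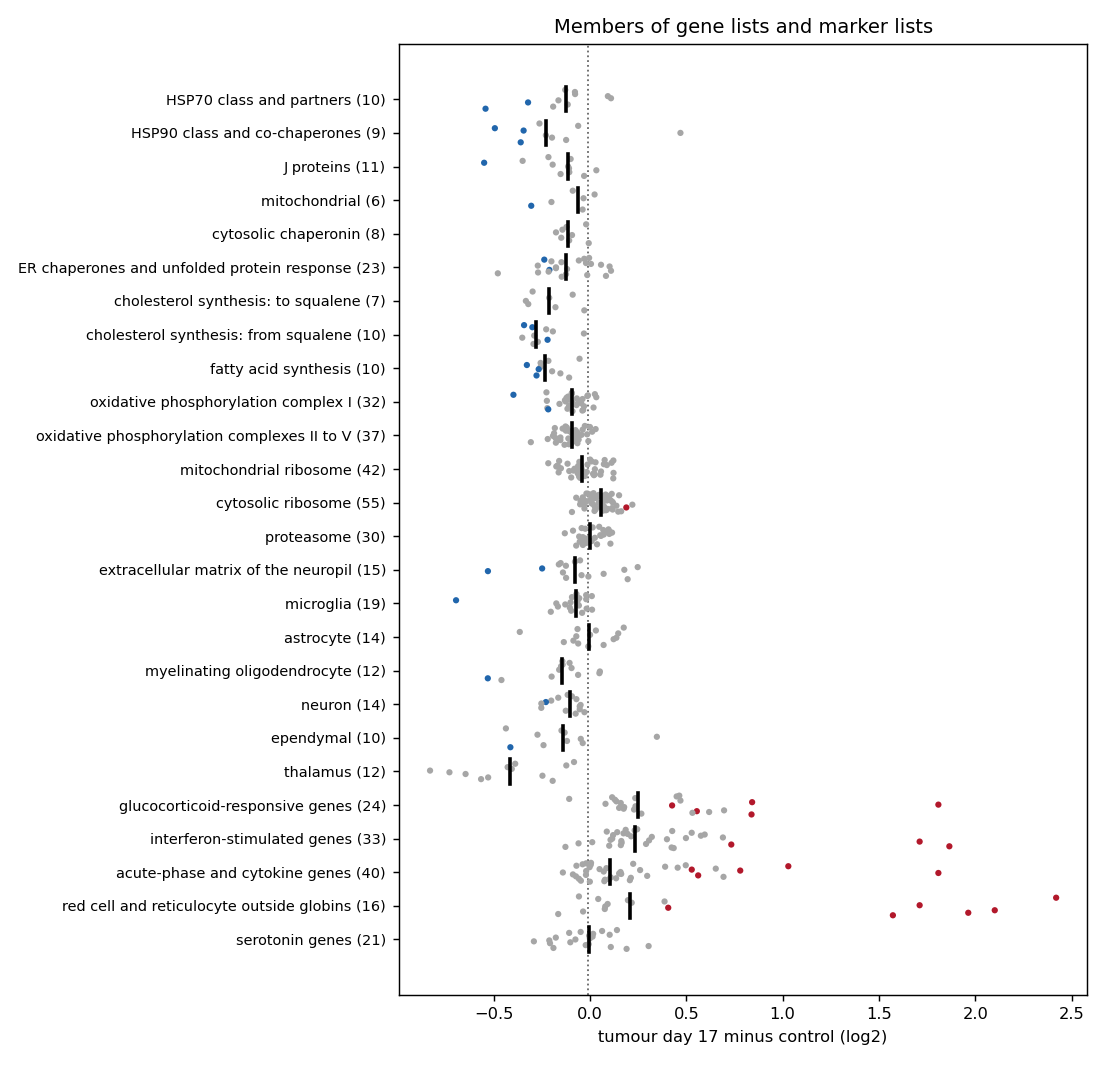
Difference between tumour day 17 and control (horizontal axis, log2) for each measured member of 26 gene lists and marker lists (vertical axis, number measured in parentheses). Each point is a gene, blue where called lower, red where called higher and grey where not called, black bars are list medians, and the dotted line is the median of all genes (-0.01). Medians of the chaperone, cholesterol and fatty acid lists lie left of that line, and the lists of glucocorticoid-responsive and interferon-stimulated genes lie right of it.

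Genes of lipid synthesis formed the second group of falls. Of 10 enzymes from squalene to cholesterol 3 fell and 0 rose, all 10 had a lower mean (9 under each scaling of the tested genes), and the median was -0.28. Cyp51, which removes a methyl group from lanosterol, read 7.82, 7.92, 7.87 and 7.81 in the controls and from 7.40 to 7.57 with a median of 7.52 on day 17. Every day 17 mouse lay below every control, and Cyp51 fell by 0.34 ± 0.06 (adjusted p = 0.0114). Dhcr7, the last reductase of the route, read 8.31, 7.93, 7.93 and 8.00 in the controls and from 7.60 to 7.79 with a median of 7.78 on day 17, and fell by 0.30 ± 0.07, with control 1 the highest control. Sc5d, a desaturase of the sterol ring, fell by 0.22 ± 0.05. The 3 falls became 1 under each of the 3 scalings and with the thalamus covariate. Of 7 enzymes before squalene 0 were called, all 7 had a lower mean (6 under each of those scalings), and the median was -0.21. Among these, Hmgcs1 differed by -0.21 ± 0.06 and Idi1 by -0.33 ± 0.10.

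Fatty acid synthesis, a list of 10 genes, had 3 falls and 0 rises. All 10 had a lower mean, also under both scalings and without the 4 thalamus-high arrays, and the median was -0.24. The called enzymes act on chain length and double bonds, as do Scd2, Elovl6 and Fads2 of the same list, which were not called. At an unadjusted limma p below 0.05, 8 of the 10 genes were lower, as were 1977 of all 18820 genes (10.5%). The calls therefore do not set late steps apart from early ones. Elovl5, an elongase of polyunsaturated chains, read 9.40, 9.47, 9.37 and 9.40 in the controls and from 8.97 to 9.17 with a median of 9.10 on day 17, and fell by 0.33 ± 0.07 (adjusted p = 0.0315). Scd1, which places the first double bond in saturated chains, read 10.53, 10.70, 10.56 and 10.54 in the controls and from 10.17 to 10.41 with a median of 10.31 on day 17, and fell by 0.28 ± 0.06. Fads1, a desaturase of polyunsaturated chains, read 10.49, 10.50, 10.43 and 10.41 and from 10.11 to 10.30 with a median of 10.19, and fell by 0.27 ± 0.05 (adjusted p = 0.0119). None of these 3 overlapped between groups. The 3 falls became 2 after the second quantile normalization and 1 with median centring and with the thalamus covariate. Fasn and Acaca, which build the chain, differed by -0.15 ± 0.05 and -0.05 ± 0.05 and were not called.

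Of 13 genes of sterol regulation and uptake, 0 fell and 1 rose, with a median of 0.00 (0.03 under both scalings of the tested genes). The rise was Ch25h, which makes 25-hydroxycholesterol, an oxysterol that restrains SREBP processing. It read 3.41, 3.47, 3.46 and 3.74 in the controls, under the background measure, and ran from 4.30 to 4.86 with a median of 4.53 on day 17. The groups did not overlap, and Ch25h rose by 1.03 ± 0.18 (adjusted p = 0.00578).

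Promoters of the lipid genes were searched for CCAAT, read on both strands and bound by NF-Y, a factor that works with SREBP at sterol genes. Those of Cyp51 and Elovl5 are shown, with the box or its reverse complement in capitals, as the first 280 bases of the RefSeq windows.
Cyp51 promoter: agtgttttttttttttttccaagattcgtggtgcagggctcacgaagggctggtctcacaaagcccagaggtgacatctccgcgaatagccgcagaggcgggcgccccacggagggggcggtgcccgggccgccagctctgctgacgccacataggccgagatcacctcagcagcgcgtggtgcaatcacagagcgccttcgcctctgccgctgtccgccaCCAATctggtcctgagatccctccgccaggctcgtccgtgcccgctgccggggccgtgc
Elovl5 promoter: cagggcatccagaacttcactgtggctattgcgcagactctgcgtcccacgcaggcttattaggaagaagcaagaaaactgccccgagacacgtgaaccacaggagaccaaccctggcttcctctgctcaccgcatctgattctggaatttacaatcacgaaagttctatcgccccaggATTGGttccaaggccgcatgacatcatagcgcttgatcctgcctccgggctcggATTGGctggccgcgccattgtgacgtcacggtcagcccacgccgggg

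These stretches are chr5:4104668-4104947 (minus strand) for Cyp51 and chr9:77917115-77917394 (plus strand) for Elovl5. CCAAT was in a window of 18 of 21 genes of the cholesterol and fatty acid lists that had one (85.7%) and of all 4 called genes that had one, against 6177 of all 14749 genes (41.9%). The nearest match began 29 bases before the start in Cyp51 and 17 before it in Elovl5. The sterol element letters TCACNCCAC were in 1 of the 21 genes (4.76%) and in 1.42% of all. These are matches of letters, not measured binding.

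In the endoplasmic reticulum, 2 of 23 chaperone and unfolded protein response genes fell and 0 rose, with a median of -0.12. Manf, a secreted protein that cells raise under folding stress in this compartment, read 6.58, 6.50, 6.52 and 6.51 in the controls and from 6.27 to 6.38 with a median of 6.31 on day 17, without overlap, and fell by 0.21 ± 0.05 (adjusted p = 0.0414). Calr, a calcium-binding chaperone, fell by 0.24 ± 0.06. Neither was called after any of the 3 scalings above. Sdf2l1 had the largest difference of the list at -0.48 ± 0.14 but was not called (adjusted p = 0.0865), and Hspa5, the central chaperone BiP, differed by -0.18 ± 0.06.

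Of 32 subunits of respiratory complex I, 2 fell and 0 rose, and 29 had a lower mean, with a median of -0.09. Ndufa2, an accessory subunit, read 9.04, 9.09, 8.99 and 9.01 in the controls and from 8.52 to 8.83 with a median of 8.61 on day 17, and fell by 0.40 ± 0.08 (adjusted p = 0.0236). Ndufs8, a core subunit, fell by 0.22 ± 0.05, a call lost with the 3 scalings, the thalamus covariate and only the compared groups in the fit. Of 37 subunits of complexes II to V 0 were called and 35 had a lower mean, with the same median of -0.09. Bins 9 and 10, the highest by level, hold the array means of these 2 lists, and each had a median of -0.05. After the second quantile normalization these bins lay at -0.01 and the lists at -0.05 and -0.06. Of the list members, 21 of 32 and 29 of 37 were then lower. What part the level of the genes had was not tested. Cox7a1, a cytochrome oxidase subunit, and Bcs1l, an assembly factor of complex III, both picked after their values were seen, fell by 0.38 ± 0.08 and 0.36 ± 0.08. The Cox7a1 call was lost with only the compared groups in the fit, and that of Bcs1l also with both scalings of the tested genes and the thalamus covariate.

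Of 55 cytosolic ribosomal protein genes 0 fell and 1 rose, 12 had a lower mean, and the median was 0.06. The rise was Rps20, by 0.19 ± 0.04, from 10.37, 10.45, 10.43 and 10.39 in the controls to values from 10.54 to 10.63 with a median of 10.61 on day 17, and its call was lost with only the compared groups in the fit and with the thalamus covariate. Proteasome subunits, 30 measured, had 0 calls and a median of 0.00 (0.04 after the second quantile normalization and 0.03 with median centring), and 42 mitochondrial ribosomal protein genes had 0 calls and a median of -0.04. Outside that list, and picked after their values were seen, Mrpl36, a further mitochondrial ribosomal protein gene, fell by 0.32 ± 0.08 and Mrrf, the mitochondrial ribosome recycling factor, fell by 0.32 ± 0.08. Both calls were lost with both scalings of the tested genes, the thalamus covariate and only the compared groups in the fit.

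Several falls were genes of glia and of the matrix between cells. Fabp7, a fatty acid carrier of radial glia and astrocytes, read 11.03, 11.16, 11.10 and 11.04 in the controls and from 10.14 to 10.78 with a median of 10.27 on day 17. Every day 17 mouse lay below every control, with the smallest gap in mouse 6. Fabp7 fell by 0.75 ± 0.13 (adjusted p = 0.0047), the largest fall among genes with a control mean above 8, and differed by -0.30 on day 10 and -0.46 on day 14. Of 15 radial glia and tanycyte markers 1 fell, Fabp7 itself, and the list's median was 0.07. Of 14 astrocyte markers 0 were called, with a median of 0.00 (0.04 after the second quantile normalization and 0.03 with median centring).

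Ncan, the proteoglycan neurocan of the perineuronal matrix, read 8.60, 8.59, 8.72 and 8.65 in the controls and from 7.94 to 8.36 with a median of 8.09 on day 17. The groups were apart, and Ncan fell by 0.53 ± 0.09 (adjusted p = 0.00372). Hapln4, a link protein that ties such proteoglycans to hyaluronan, fell by 0.25 ± 0.06, a call lost with the 3 scalings, the thalamus covariate and only the compared groups in the fit. The other 13 neuropil matrix genes were not called, among them Bcan at -0.08 ± 0.05 and Vcan at 0.20 ± 0.05. Astrocyte membrane proteins outside the lists, picked after their values were seen, included Kcnj10, the Kir4.1 potassium channel, which fell by 0.30 ± 0.07, the glutamine transporter gene Slc38a3, which fell by 0.30 ± 0.06, and the receptor gene Gpr37l1, which fell by 0.26 ± 0.06. All 3 calls were lost with only the compared groups in the fit. Among the 14 astrocyte markers of the list, 0 were called, 7 had a lower mean and 7 a higher one.

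Fcrls, an Fc receptor-like gene of resident microglia, read 6.58, 6.12, 6.39 and 6.17 in the controls and from 5.48 to 5.87 with a median of 5.59 on day 17, without overlap, and fell by 0.70 ± 0.09 (adjusted p = 0.00104). It was called in all 22 fits that left out 1 array, and its difference was -0.51 without the 4 thalamus-high arrays. The other 18 microglia markers were not called, 17 of 19 had a lower mean, and the median was -0.07. Tmem119 and P2ry12, both microglial, differed by -0.10 ± 0.10 and -0.13 ± 0.10.

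Padi2, a peptidylarginine deiminase of oligodendrocytes, read 6.74, 6.82, 6.67 and 6.32 in the controls and from 6.00 to 6.23 with a median of 6.11 on day 17, and fell by 0.53 ± 0.11 (adjusted p = 0.0236), the groups not overlapping, a call lost with the thalamus covariate. It was the 1 call among 12 myelinating oligodendrocyte markers (median -0.14), in which Mag, a myelin glycoprotein, differed by -0.16 ± 0.12. Tmem212, an ependymal marker, read 6.40, 6.11, 6.04 and 6.28 in the controls and from 5.65 to 5.96 with a median of 5.75 on day 17 and fell by 0.41 ± 0.09, the 1 call among 10 ependymal markers (median -0.14). Dnaic1, a dynein chain of motile cilia, fell by 0.42 ± 0.10, and Foxj1, the switch for such cilia, differed by -0.27 ± 0.08 (adjusted p = 0.0894). All 14 neuron markers had a lower mean (13 under each scaling of the tested genes), as had 10103 of all 18820 genes. The median of the markers was -0.10, against -0.05 for the highest bin of genes by level, which holds their array means. The 1 call was the neurofilament gene Nefl, which fell by 0.23 ± 0.06 and was not called after any of the 3 scalings.

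**Figure D3:**
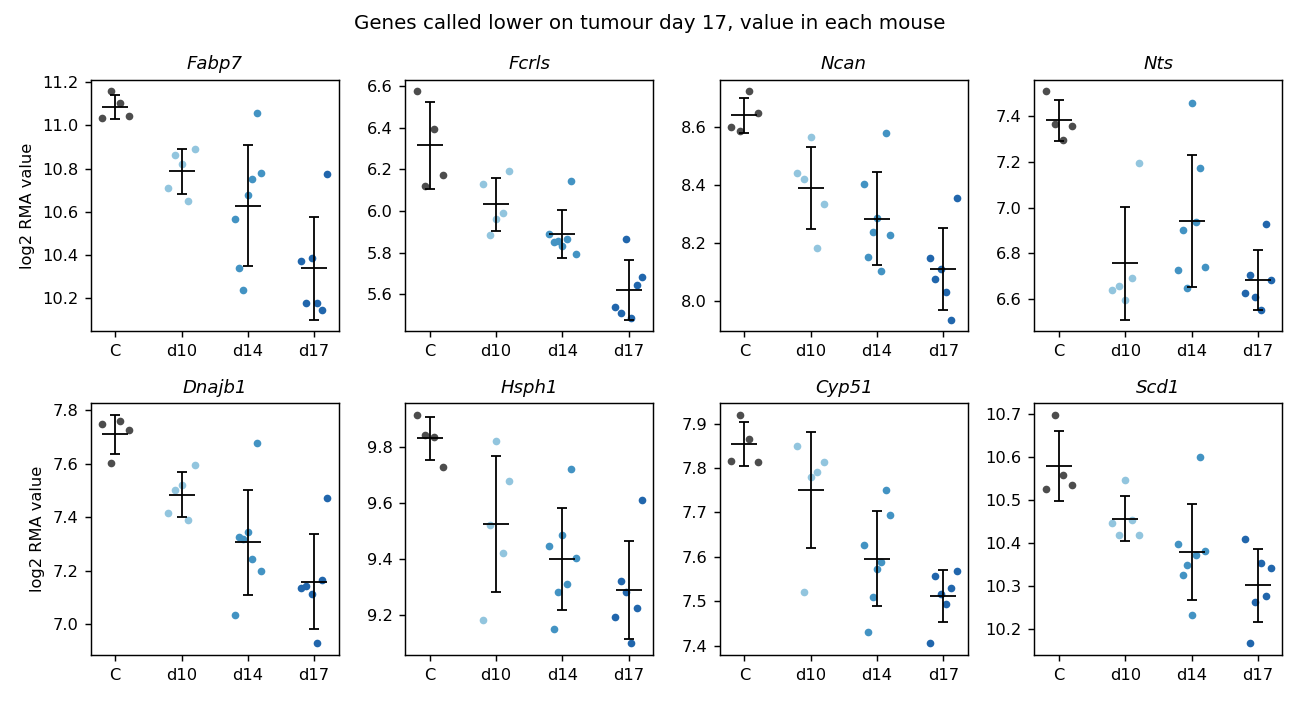
Log2 RMA value (vertical axis) in each mouse for 8 genes called lower on tumour day 17, by group (C, 4 controls of day 14; d10, d14 and d17, tumour days 10, 14 and 17 with 5, 7 and 6 mice). Points are mice, horizontal lines group means and bars the SD. In all 8 genes the 6 day 17 mice lie below the 4 controls, and day 17 mouse 6 is the highest of its group in 5 of them.

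Among appetite-reducing neuropeptides, 1 of 14 fell and 0 rose, with a median of -0.09. This was Nts, the neurotensin precursor, which read 7.51, 7.37, 7.29 and 7.36 in the controls and from 6.55 to 6.93 with a median of 6.66 on day 17. No mouse of day 17 reached the lowest control, and Nts fell by 0.70 ± 0.13 (adjusted p = 0.0114). It differed by -0.63 on day 10 and -0.44 on day 14 from the same controls. Pomc, the melanocortin precursor, read 6.06, 6.69, 5.48 and 5.81 in the controls and from 5.04 to 5.68 with a median of 5.26 on day 17, so that the groups overlapped, and its difference of -0.69 ± 0.21 was not called (adjusted p = 0.102, 95% interval -1.12 to -0.26). Cartpt, a further neuropeptide gene of the same list, differed by 0.04 ± 0.14 (95% interval -0.24 to 0.33).

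Of 6 appetite-stimulating neuropeptides 1 rose, Npy, and 0 fell. Npy read 7.94, 8.16, 7.73 and 9.13 in the controls and from 9.12 to 10.00 with a median of 9.49 on day 17, where the lowest mouse lay just under control 4, and it rose by 1.27 ± 0.24 (adjusted p = 0.012), a call that was lost with only the compared groups in the fit and with the thalamus covariate. Without the 4 thalamus-high arrays the difference was 0.95. Hcrt, the orexin precursor of the lateral hypothalamus, differed by -0.33 ± 0.21 (95% interval -0.77 to 0.11). Ghsr, the ghrelin receptor found on the Npy neurons, was the 1 call among 17 receptors of feeding, reading 5.54, 5.47, 5.70 and 5.84 in the controls and from 5.98 to 6.25 with a median of 6.15 on day 17, a rise of 0.49 ± 0.08 without overlap. Lepr, the leptin receptor, differed by 0.50 ± 0.14 and was not called (adjusted p = 0.0708). Ghrh, the releasing hormone of growth hormone, also rose, by 0.70 ± 0.12. Agrp and Pmch were not analysed here.

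Of 21 serotonin genes limma called 0, with 3 lower and 0 higher at an unadjusted p below 0.05. Over all 18820 genes, 1977 (10.5%) were lower and 1154 higher at that p, so the 3 lower genes lie near the share of all genes. The list's median was -0.01, and 0.03 with arrays centred on their medians, so that its sign rested on the scaling. The largest differences were 0.30 ± 0.20 in Slc18a2, the vesicular monoamine transporter (95% interval -0.11 to 0.72), and -0.29 ± 0.12 in the receptor gene Htr5b (-0.54 to -0.04). Intervals were wide enough that these values do not show equal levels.

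The remaining large falls had varied roles. Spink10, a serine protease inhibitor gene, had the largest, at 0.78 ± 0.12, with controls of 5.57, 5.52, 5.46 and 5.12 and day 17 values from 4.26 to 5.10 with a median of 4.63, close below the lowest control. Kctd21 fell by 0.62 ± 0.10 from 6.73, 6.40, 6.40 and 6.37 to values from 5.63 to 6.00 with a median of 5.93. Inhbb, the beta B chain of activin and inhibin, fell by 0.51 ± 0.12, and the difference was -0.32 without the 4 thalamus-high arrays. Tst, a mitochondrial sulfurtransferase, fell by 0.50 ± 0.11, and Lman2l, a lectin of the early secretory route, fell by 0.49 ± 0.08. Lamp5, a membrane protein of certain neurons, fell by 0.49 ± 0.08, and Cbln2, an organiser of synapses, fell by 0.40 ± 0.10, with a difference of -0.26 without the 4 arrays. Nmnat1, which makes NAD in the nucleus, fell by 0.42 ± 0.08, Pla2g7, which breaks down platelet-activating factor, fell by 0.39 ± 0.07, and Rnase1, a secreted ribonuclease, fell by 0.45 ± 0.08.

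Tm6sf2, known for lipid export from liver, fell by 0.55 ± 0.14 and was called in 6 of 22 fits that left out 1 array, while Kctd21, Lman2l, Lamp5 and Rnase1 were called in all 22. The others of the 30 largest falls, Kcne1l, Car9, Greb1, Fam166c, Tsga10, H4c3, Phf23 and Bok, lay between -0.49 and -0.39, and Bok differed by -0.20 without the 4 arrays. Of the 30 largest falls, 13 were also called in each of 4 alternatives, namely median centring, the second quantile normalization, the thalamus covariate and only the compared groups in the fit. These were Spink10, Fabp7, Nts, Fcrls, Kctd21, Dnajb1, Hsph1, Ncan, Lman2l, Lamp5, Rnase1, Tsga10 and Ndufa2. The covariate ended 13 of the 30 calls, the smaller fit 11, and each of those scalings 7. Car9, a carbonic anhydrase induced by hypoxia, and the glycolytic regulator Pfkfb3 (-0.27 ± 0.07) fell, whereas 3 of the 17 hypoxia-responsive genes rose, the glucose transporter gene Slc2a1 by 0.49 ± 0.10, Ldha by 0.27 ± 0.06 and Ankrd37 by 0.46 ± 0.11. With the thalamus covariate 0 of these 5 were called. Car9 read 4.21, 3.59, 3.83 and 4.13 in the controls, around the background measure of 3.87, and at most 3.65 on day 17, so its fall lies at the floor of the arrays. Of 16 immediate early genes 1 fell, Jun, by 0.28 ± 0.06, and 0 rose. Jun was not called after any of the 3 scalings.

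The falls were compared within subsets of the arrays. Without the 4 arrays highest in thalamus markers, all 129 kept a negative sign, and their median size was 0.29 against 0.33. In the later 13 samples by accession, a split that no label calls a batch, there were 3 controls and 3 day 17 mice, all 129 were negative with a median size of 0.30, and in the first 9 samples, with 1 control and 3 day 17 mice, the median size was 0.36. These subsets reuse arrays from which the genes were called, so the kept signs are no independent support. Limma called 0 genes in the later samples (2842 at an unadjusted p below 0.05), 1 in the earlier samples (1295) and 0 without the 4 arrays (1706). When the mean of the thalamus markers entered as a covariate, it called 84, of which 45 were lower. The total was 37, 59 and 56 without controls 1, 2 and 3, 94, 108, 74 and 100 without day 17 mice 2 to 5, and 382 without mouse 6. With only the 10 arrays compared in the fit it was 81, of which 36 were lower.

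**Figure D4:**
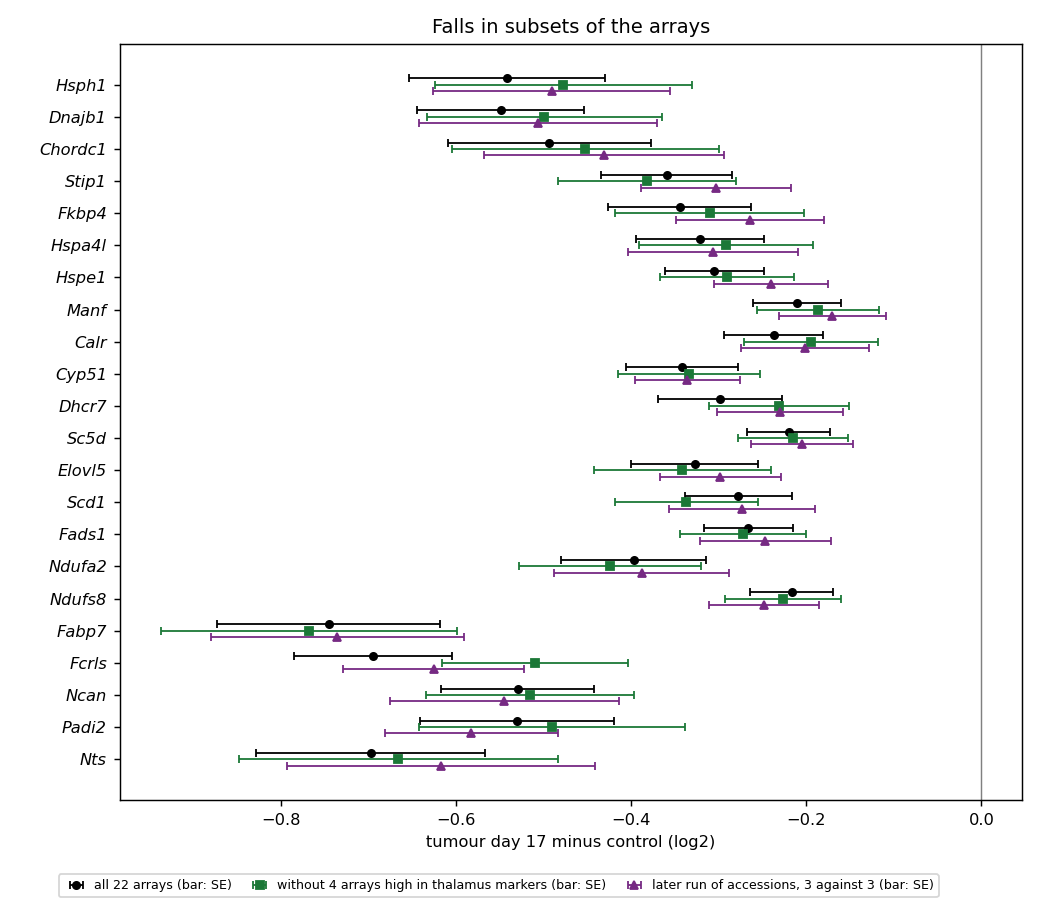
Difference between tumour day 17 and control (horizontal axis, log2) for 22 genes called lower, each in 3 fits. They are the called chaperone, lipid and complex I genes described above, with Fabp7, Fcrls, Ncan, Padi2 and Nts. Black circles use all 22 arrays, green squares leave out the 4 arrays highest in thalamus markers, purple triangles use the later samples alone with 3 controls and 3 day 17 mice, and bars are the SE of each fit. All points lie left of 0, and Fcrls went from -0.70 to -0.51 without the 4 arrays.

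Of 16 markers of red cells and reticulocytes other than globins, 6 rose and 0 fell. Alas2, which starts heme synthesis in developing erythrocytes, read 4.97, 4.72, 4.96 and 6.41 in the controls and from 7.14 to 8.75 with a median of 7.50 on day 17, and rose by 2.42 ± 0.34 (adjusted p = 0.00128). Control 4 was the highest control in Alas2, and the lowest day 17 mouse still lay above it. Slc4a1, the anion exchanger of red cells, read 4.28, 3.88, 4.26 and 5.29 in the controls and from 6.07 to 7.72 with a median of 6.28 on day 17, with mouse 3 highest. Isg20, Tent5c and Ube2l6, which interferon or inflammation also induce, and Rhag, a membrane protein of red cells, were the other 4 calls. Rhag lay under the background measure in both groups, with means of 2.41 and 2.82. Over the list, the array mean was 5.56 to 5.89 in the controls and 6.18 to 6.72 on day 17. The share of blood in each dissection was not tested. Tfrc, the transferrin receptor, picked after its value was seen, rose by 0.41 ± 0.07.

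Interferon-stimulated genes, 33 measured, had 3 rises (Rsad2, Isg20 and Oasl2) and 0 falls, with a median of 0.23. Isg20 is also counted among the red cell rises above. In all 3 genes, as in Alas2, control 4 was the highest control and mouse 3 the highest day 17 mouse. Whether these rises are separate from those of the red cell markers was not tested. Rsad2, the antiviral protein viperin, read 4.80, 4.79, 4.40 and 5.73 in the controls and from 6.33 to 8.07 with a median of 6.58 on day 17, with mouse 3 far above the rest, and rose by 1.87 ± 0.32. Oasl2 rose by 0.73 ± 0.12, from 6.16, 6.04, 6.14 and 6.53 to values from 6.66 to 7.20 with a median of 6.95, without overlap. Of 40 acute-phase and cytokine genes 5 rose and 0 fell (median 0.10). These were Lcn2, Ch25h, Il1r1, the receptor of interleukin 1, by 0.78 ± 0.17, Osmr, the oncostatin M receptor, by 0.56 ± 0.12, and the adhesion molecule gene Icam1 by 0.53 ± 0.13. With the thalamus covariate 1 of the 5 was called. Vwf, a clotting factor stored in endothelium, rose by 1.50 ± 0.26 and was the 1 call among 14 endothelial markers (median 0.18). Of 12 circulating leukocyte markers 0 were called, and 10 of 12 had a control mean under background.

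Of 24 glucocorticoid-responsive genes 5 rose and 0 fell, with a median of 0.25. Besides Lcn2, these were the kinase genes Sgk1 (0.55 ± 0.11) and Map3k6 (0.43 ± 0.10), Hif3a (0.84 ± 0.16) and the transcription factor gene Zbtb16 (0.84 ± 0.20). Zbtb16 read 7.11, 7.02, 6.89 and 7.93 in the controls and from 7.87 to 8.48 with a median of 8.04 on day 17, and control 4 overlapped the day 17 mice. With the thalamus covariate 0 of the 5 were called, and without the 4 thalamus-high arrays Zbtb16 and Hif3a differed by 0.52 and 0.52, against 0.84 and 0.84 with them. Acer2, a ceramidase that releases sphingosine, read 6.55, 6.14, 6.07 and 7.04 in the controls and from 7.73 to 8.38 with a median of 8.04 on day 17, and rose by 1.60 ± 0.21. A second Acer2 probe set, under the background measure in both groups, differed by 0.07.

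Rbm3, an RNA-binding protein raised by mild cooling, read 9.30, 9.37, 9.41 and 9.80 in the controls and from 9.97 to 10.83 with a median of 10.71 on day 17, without overlap, and rose by 1.10 ± 0.17 (adjusted p = 0.00226). All 3 of its probe sets differed by 1.06 to 1.10, and whether they read copies of the gene was not tested. Cirbp, its relative, read 7.88, 7.88, 7.84 and 8.21 in the controls and from 8.11 to 8.75 with a median of 8.65 on day 17 and rose by 0.63 ± 0.11. In Cirbp the lowest day 17 mouse, number 6, lay below control 4. Mouse 6 was also the lowest day 17 mouse in Rbm3 and the highest in Dnajb1, Hsph1, Chordc1, Fabp7 and Ncan. Core body temperature and the depth of anaesthesia are not in the labels, and their part in these genes was not tested.

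**Figure D5:**
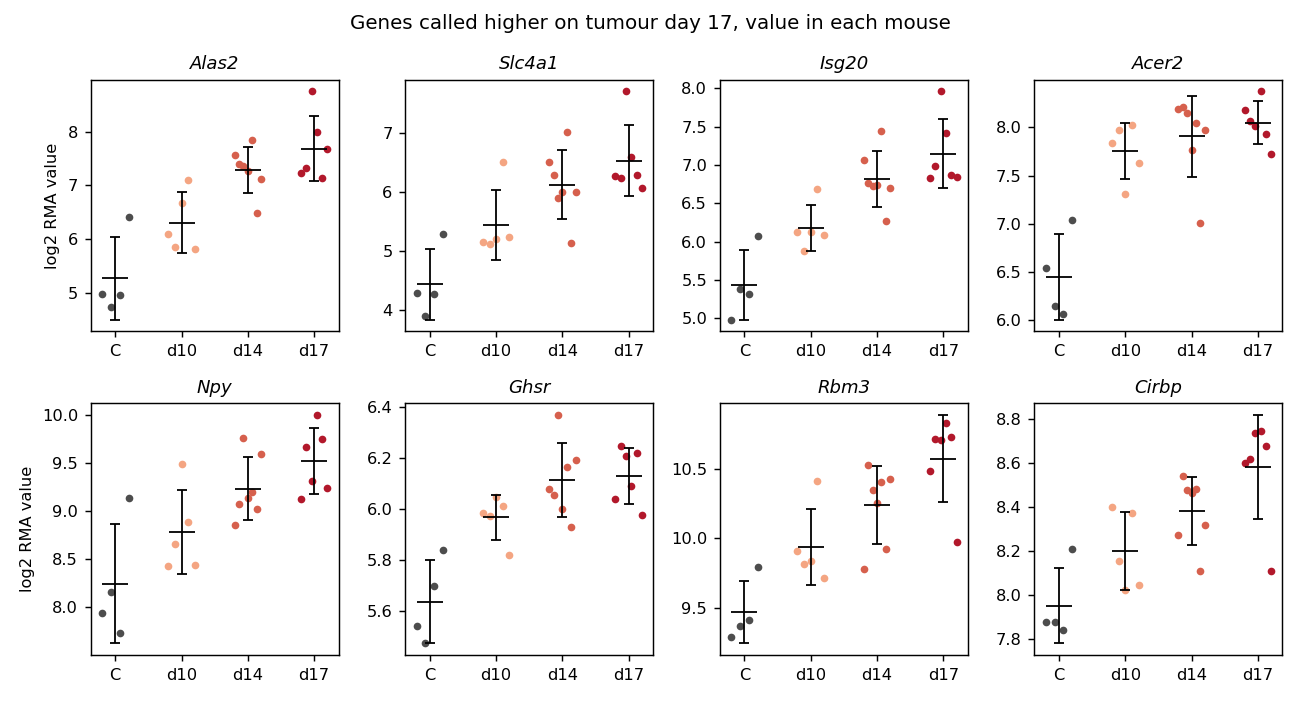
Log2 RMA value (vertical axis) in each mouse for 8 genes called higher on tumour day 17, by group (C, 4 controls of day 14; d10, d14 and d17, tumour days 10, 14 and 17 with 5, 7 and 6 mice). Points are mice, horizontal lines group means and bars the SD. Control 4 is the highest control in all 8 genes, and it overlaps day 17 mice in Npy and Cirbp.

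Day 17 was also set against tumour day 14, where no control enters. Limma called 0 of 18820 genes (0%), with 785 at an unadjusted p below 0.05. Against control 3131 genes passed that p, of which 1977 (10.5% of all genes) were lower. The median step from day 14 to day 17 was -0.04 for the heat shock proteins, -0.05 for cholesterol synthesis and -0.05 for fatty acid synthesis, against -0.01 for all genes. Fabp7 differed by -0.29 ± 0.11 between these days, Fcrls by -0.27 ± 0.08, Kctd21 by -0.33 ± 0.09 and Rnase1 by -0.34 ± 0.07, none of them called. These genes were picked from the largest falls against control, which rest on the same day 17 arrays. That choice favours a negative step, so their signs are no independent support. The values of this comparison do not show that the days were alike.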

How the data were processed

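Hypothalamic RNA (integrity number above 8, per the labels' protocols) was labelled with biotin and hybridised, 1 array per mouse. The deposited log2 values were made by the authors using RMA (named in the submitters' processing notes), a method that corrects background, normalizes between arrays and summarizes probe sets. Its version and the annotation are not given in the sources used here. Of 35556 probe sets, 21218 named 1 gene, 1881 several and 12457 none here. Each of 18820 genes was read from its brightest probe set, by the mean over 22 arrays (1386 had more than 1). The Entrez identifier matched RefSeq (GRCm38.p6) for 21185 probe sets. No low-value filter was applied. Array medians ran from 5.27 to 5.34 and correlations between arrays from 0.980 to 0.995, with 0 identical pairs. Precision is limited by the number of arrays.

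One linear model of 4 group means was fitted to 22 arrays in limma 3.58.1 (R 4.3.3, lmFit, eBayes without trend, 18 residual degrees of freedom), and the fit was tested on simulated data. Tests were two-sided. The labels do not say that mice came from separate cages or litters. Members, lists and alternatives were chosen with earlier results of these data known. The lists named up to 8 called members each, beside the 12 largest rises, the 30 largest falls, and Npy, Pomc, Cartpt, Hcrt, Rbm3 and Cirbp. Predicted genes, small RNAs and olfactory receptors (8 of the rises) were counted, not named. Alternatives changed the variance model, scaling, low-value filter, probe set rule and arrays used. The earlier samples alone and quantile normalization over all probe sets were chosen after seeing the data. Promoter letters came from RefSeq windows, with chromosome 18 left out.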

Additional observations from a re-analysis of the deposited data

Results flagged for a closer look

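For each of the 78 named genes, the highest and lowest mouse of the 4 controls and of the 6 day 17 mice was set against the rest of its group by the gap to the nearest mouse (Dixon's 95% value). Of 156 groups of values, 11 held a mouse that stood apart, and some mice recur among the 11. The genes share the same mice and were mostly chosen by their differences. The 1 in 20 that chance gives for independent groups is therefore no fitting measure here. Among the falls, control 1 was high in Kctd21 (6.73) and Lamp5 (6.91), day 17 mouse 3 was low in Inhbb (3.95), mouse 4 was low in Dnaic1 (4.82) and mouse 6 was high in Chordc1 (8.48). Among the rises, control 4 was high in Alas2 (6.41, nearest 4.97) and in Cirbp (8.21). Day 17 mouse 3 was high in Slc4a1 (7.72) and Rsad2 (8.07), mouse 1 was high in Zbtb16 (8.48), and mouse 6 was low in Cirbp (8.11).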

How the results depend on the processing

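The count of genes called for tumour day 17 against control (211, with 82 higher and 129 lower) depended on the processing. It was 81 (45 higher, 36 lower) when the fit held the compared groups alone, 323 (115 and 208) with an intensity trend, 457 (159 and 298) with array weights and 305 (105 and 200) with the low-value filter, which tested 13790 genes. Median centring gave 189 (134 and 55), the second quantile normalization 160 (93 and 67) and quantile normalization over all probe sets 148 (71 and 77). It was 616 (269 and 347) with the replicate number as a replicate block. The labels tie equal replicate numbers to no shared source. Deviations of same-numbered control and day 17 mice correlated at 0.18, -0.05, -0.06 and 0.18, too few values to settle whether equal numbers pair the mice. The block is therefore given here only. It was 84 (39 and 45) with the thalamus covariate, 0 (0 and 0) in the later samples alone, 1 (1 and 0) in the earlier samples alone and 0 (0 and 0) without the 4 thalamus-high arrays. A run term gave 263 (80 and 183), and robust variance and the mean of probe sets gave 208 and 207. With each of 22 arrays left out, the count ran from 37 to 382, with 21 to 154 higher and 16 to 228 lower. For day 17 against tumour day 14 it ran from 0 to 1 in those fits, being 1 higher without tumour day 14 replicate 6 and 1 lower without tumour day 17 replicate 2, and 0 in the others and under the other settings. No sign of a called named gene changed under any setting. Of 78 named genes, 57 kept their side of the threshold with median centring, 59 with the second quantile normalization and 36 with the thalamus covariate. The cause of these shifts was not tested. Values near or under 3.87 are limited by background.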
